A study of Mus musculus with 12 samples.

Results

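Fatty acids are burned by β-oxidation, and the 9 genes described here encode enzymes of that pathway. They were chosen by name, as the probes that the array design lists as Acadvl, Acadl, Acadm, Cpt2, Crot, Dci, C77020, 4930479F15Rik and 1300002P22Rik, and not by their response. The last 4 carry older names of Eci1, Hadha, Hadhb and Ehhadh, and the current symbols are used from here on. Each gene had 1 probe of 60 bases, so that 9 of the 20280 probes measured them, and the probes with a current symbol stood for 8075 genes in all. RNA was taken from the full-thickness small intestine of male FVB mice, 6 weeks old, that were fed or had been without chow for 12, 24 or 72 h. The fasted mice were held in metabolic cages, with warming by an infrared lamp from 24 h on. For each of these 4 groups 3 arrays were hybridized, each with Cy3-labelled RNA pooled from 2 mice and with a Cy5-labelled reference pooled from 6 fed mice, without a dye swap. The source label of the reference on the third fed array names only the 2 mice of that pool, whereas its labelling protocol gives all 6. Values are log2(Cy3/Cy5), the level of a pool relative to the fed reference on the same array, and differences between groups are differences of these log2 ratios.

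In the mitochondrion, long-chain fatty acids arrive as acylcarnitines, Cpt2 turns these back into acyl-CoA, and each turn of the cycle then removes a pair of carbons by dehydrogenation, hydration, a further dehydrogenation and thiolysis. Acadvl, Acadl and Acadm carry out the dehydrogenation for acyl chains of decreasing length, Hadha and Hadhb form the trifunctional protein that completes the cycle for long chains, and Eci1 moves double bonds of unsaturated fatty acids into place. Peroxisomes run a shorter version for chains that mitochondria handle poorly, with Ehhadh for hydration and dehydrogenation and Crot for handing the shortened chains over to carnitine. Genes of both routes are textbook targets of the nuclear receptor PPARα, and enterocytes, the absorptive cells of the gut, pass most dietary fat on in chylomicrons.

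Hadha and Hadhb lie head to head on chromosome 5, at chr5:30119423-30154980 and chr5:30155253-30184593 (GRCm38.p6), with 272 bases between the annotated genes, so that their promoter windows overlap. The windows of RefSeq, 250 bases before to 50 bases after the start of each gene, are shown for this pair, for Cpt2, which had the largest fall, and for Acadm, which carries the AGGTCA element that nuclear receptors bind. For Hadhb (chr5:30155003-30155302, plus strand) and Hadha (chr5:30154931-30155230, minus strand), capitals mark the 228 bases that both windows share, read from opposite strands. For Cpt2 (chr4:107923540-107923839, minus strand) and Acadm (chr3:153944594-153944893, minus strand), capitals mark the GC box GGGCGG and the element AGGTCA on either strand.
Hadhb: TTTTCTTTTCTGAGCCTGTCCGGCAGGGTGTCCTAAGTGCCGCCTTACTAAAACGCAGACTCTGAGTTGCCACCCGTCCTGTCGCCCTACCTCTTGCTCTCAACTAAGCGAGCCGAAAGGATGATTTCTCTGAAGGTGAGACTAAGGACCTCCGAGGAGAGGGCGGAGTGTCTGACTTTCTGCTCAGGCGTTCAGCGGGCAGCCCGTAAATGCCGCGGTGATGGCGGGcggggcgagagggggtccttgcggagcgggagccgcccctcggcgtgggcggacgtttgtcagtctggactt
Hadha: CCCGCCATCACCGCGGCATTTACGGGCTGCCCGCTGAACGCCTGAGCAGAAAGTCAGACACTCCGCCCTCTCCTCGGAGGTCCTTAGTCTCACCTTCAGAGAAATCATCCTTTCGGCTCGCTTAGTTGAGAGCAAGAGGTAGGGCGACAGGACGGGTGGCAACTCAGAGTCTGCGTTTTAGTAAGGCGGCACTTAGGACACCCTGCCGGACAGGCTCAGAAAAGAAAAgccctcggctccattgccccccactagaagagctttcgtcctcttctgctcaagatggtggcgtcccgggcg
Cpt2: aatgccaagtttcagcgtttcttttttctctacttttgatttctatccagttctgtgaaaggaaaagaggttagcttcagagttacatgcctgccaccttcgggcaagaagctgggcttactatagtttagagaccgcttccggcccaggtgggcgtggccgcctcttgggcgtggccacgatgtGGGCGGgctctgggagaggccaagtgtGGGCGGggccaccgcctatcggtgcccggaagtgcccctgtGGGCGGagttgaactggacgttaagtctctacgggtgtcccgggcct
Acadm: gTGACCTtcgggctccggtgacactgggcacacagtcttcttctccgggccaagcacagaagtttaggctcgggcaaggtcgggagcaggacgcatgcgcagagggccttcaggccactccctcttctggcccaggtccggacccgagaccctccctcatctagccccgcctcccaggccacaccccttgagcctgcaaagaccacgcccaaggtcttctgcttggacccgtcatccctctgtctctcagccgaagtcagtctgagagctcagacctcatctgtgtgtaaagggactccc

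All 9 genes had a window among the 32851 promoter windows of the table. GGGCGG stood on either strand in 7 of the 9, all but Acadm and Acadvl, and in 35.7% of all windows. AGGTCA stood in 2 of the 9, Acadm and Acadvl, and in 16.3% of all windows. The CCAAT box (CCAAT) was found in the windows of Crot and Ehhadh and in 37.4% of all windows, and TATAAA in no member and in 13.6% of all windows. The GC content of the 9 windows ran from 50.7% to 70.3%, beside a median of 52.7% over all windows. Such matches are descriptions of the letters and do not show binding.

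The probes of all 9 genes were well above background in both channels on all 12 arrays, and none was saturated. Of their 108 values, 8 were left out because the scanner software marked the spot as a non-uniform outlier in Cy5. These were 4 values of Acadvl, 2 of Hadha and 1 each of Cpt2 and Acadm. Tissue identity could be checked on 7 of 14 enterocyte markers, and all 7 were well above background in Cy3 on all 12 arrays. Log ratios of 2 pools of the same group correlated over all probes in a range of 0.812 to 0.853 for 72 h, 0.596 to 0.647 for 24 h, 0.185 to 0.543 for 12 h and 0.196 to 0.784 for the fed group. The files of the 12 and 24 h arrays have another layout than those of the fed and 72 h arrays and a median Cy5 background of 188 to 296.5, beside 70 to 81, so that for the 12 and 24 h pools fasting cannot be told apart from the set of arrays. The comparison of 72 h with fed and that of 24 h with 12 h each lie within one set. Pools are of whole intestinal wall, so that fewer cells of a type and less RNA per cell cannot be told apart.

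After 72 h of fasting, 7 of the 9 genes were downregulated: Cpt2, Ehhadh, Acadl, Crot, Hadhb, Acadm and Eci1, by 1.53- to 3.59-fold. In each of these 7 genes every 72 h pool lay below every fed pool, as in 20.6% of all probes, and 5.8% of all probes were called lower at an adjusted p under 0.05. The median difference of the 9 genes was -0.79, whereas that of all probes was 0.01. Hadha did not pass the test, and Acadvl was the 1 gene called higher, beside 4.8% of all probes, but on the value of a single fed pool. At 12 h, 2 genes were called higher, Hadha and, on that single fed pool, Acadvl, and 2 lower, Crot and Ehhadh, with 4.9% and 6.02% of all probes called in these directions. At 24 h Acadvl was called higher on the same pool, and Crot and Ehhadh were called lower, beside 3.79% and 6.26% of all probes. Without Acadvl, 3 genes were called after 12 h, 2 after 24 h and 7 after 72 h. The median difference of the 9 genes was -0.14 at 12 h and -0.18 at 24 h. The split at 12 h moved with the normalization, to 3 higher and 1 lower with loess, to 1 higher and 4 lower with median centring, and to 3 higher and none lower in the Cy3 channel alone, where 11.3%, 14.9% and 15% of all probes were called in either direction. With the outlier spots kept, the splits were 2 higher and 1 lower at 12 h, none higher and 3 lower at 24 h, and none higher and 7 lower at 72 h, beside 9.59%, 9.81% and 10.4% of all probes called.

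**Figure D1:**
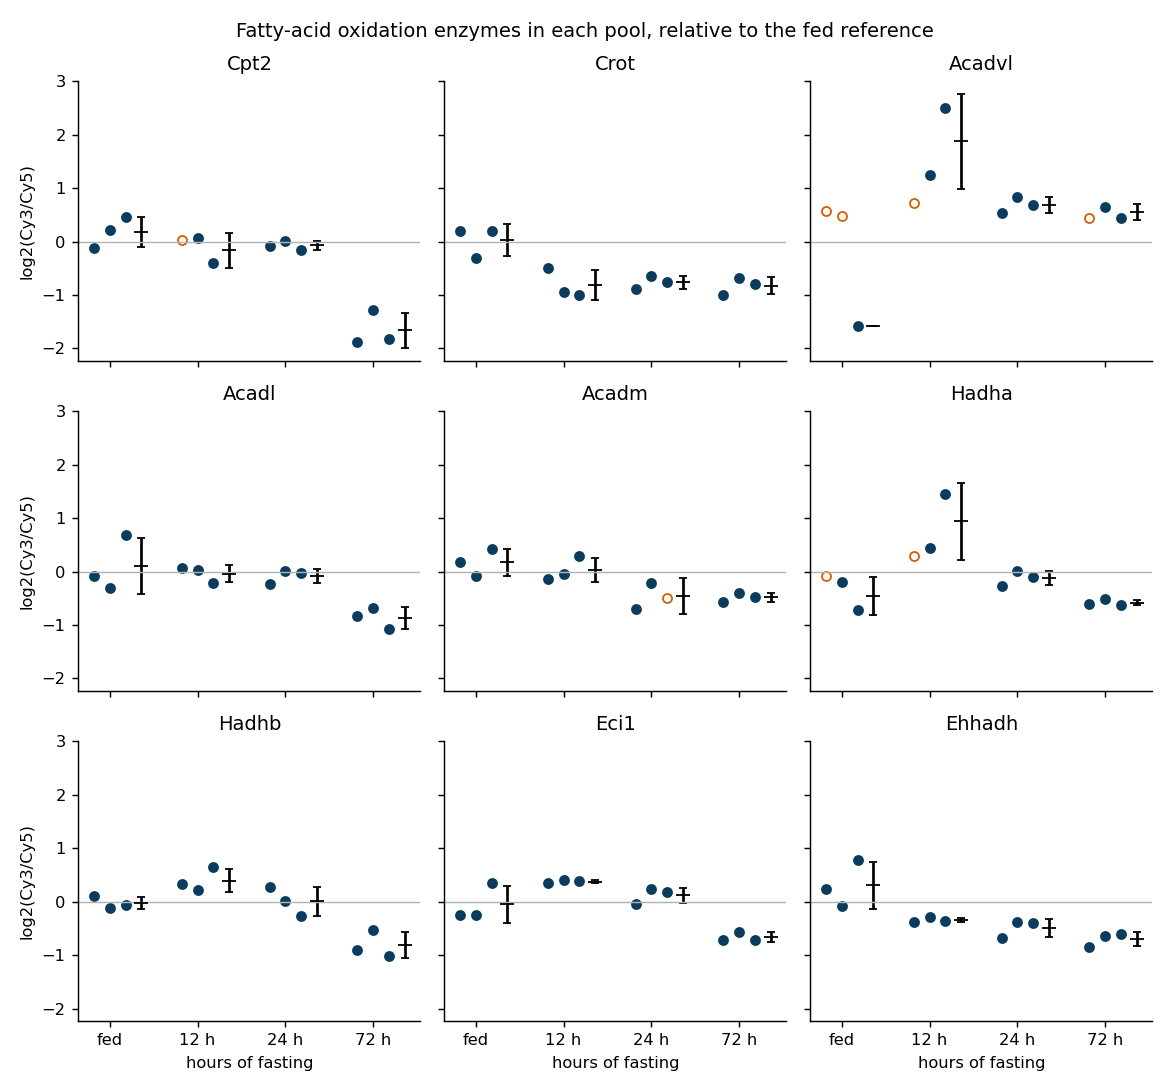
Log2(Cy3/Cy5) of the 9 genes (1 panel each) in every pool by hours of fasting, with filled points for pools in the fit, open orange points for spots left out as outliers, and bars for the mean ± SD of the filled points. The 72 h pools of Cpt2 lie between -1.88 and -1.28, under all other pools, and of the fed values of Acadvl only -1.59 was in the fit.

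The count at 72 h depended on single pools. It fell from 8 to 3 without 72 h replicate 1, to 4 without 72 h replicate 3 or fed replicate 1, and to 5 without fed replicate 3, and was 6 to 8 without any other array. Calls over all probes at 72 h fell too, from 2150 to 852 without 72 h replicate 1 and to 1464 without 72 h replicate 3. They were 1250 without fed replicate 1 and 1111 without fed replicate 3. Cpt2 and Ehhadh were called lower at 72 h in all 12 of these fits, Crot and Acadl in 10, Hadhb in 9, Eci1 in 7 and Acadm in 6. Fits without a 12 or 24 h array leave the difference of 72 h from fed as it was and alter only the shared estimate of the spread. Among the fits without a fed or 72 h pool, Eci1 and Acadm kept their calls only in that without fed replicate 2. The count of 4 at 12 h fell to 2 without fed replicate 1 and to 1 without fed replicate 3. Calls over all probes at 12 h fell from 2213 to 817 and 636 in the same fits. The count of 3 at 24 h fell to 0 without fed replicate 3 and to 1 without fed replicate 1, 24 h replicate 1 or 24 h replicate 3. Over all probes, the 2038 calls at 24 h fell to 970, 587, 786 and 1086 in these fits, in the same order.

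Of the enzymes that handle carnitine esters, Cpt2 fell late and steeply. Its log2 ratios were -0.12, 0.21 and 0.45 in the fed pools, 0.07 and -0.39 in the 2 pools measured at 12 h, -0.07, 0.02 and -0.16 at 24 h, whereas the 72 h pools had -1.88, -1.28 and -1.83. Pools of the first 3 groups overlapped, and the 72 h pools lay more than 1 log2 unit under fed. The differences from fed were -0.34 ± 0.23 (SE) at 12 h (adjusted p = 0.345) and -0.26 ± 0.21 at 24 h (0.453). At 72 h the difference was -1.85 ± 0.21, a 3.59-fold lower level (adjusted p = 0.000261, n = 3 pools per group, limma). The 95% interval at 72 h ran from -2.29 to -1.399.

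Crot, the peroxisomal carnitine octanoyltransferase, had a lower log2 ratio at all 3 times, by about the same amount. Its fed pools had log2 ratios of 0.21, -0.31 and 0.20, the 12 h pools -0.50, -0.95 and -0.998, the 24 h pools -0.88, -0.65 and -0.76, and the 72 h pools -0.99, -0.69 and -0.80. None of the fasted pools overlapped the fed pools. The differences from fed were -0.84 ± 0.19 at 12 h (adjusted p = 0.015), -0.79 ± 0.19 at 24 h (0.0191) and -0.86 ± 0.19 at 72 h (0.00971), and none of the 3 differences between fasted times passed the test. In Cy3 alone the differences of Crot from fed were -0.12 at 12 h (adjusted p = 0.757), -0.63 at 24 h (0.0467) and -0.64 at 72 h (0.0817). Its Cy5 signal at 12 h was higher by 0.73 (0.0137). Without fed replicate 1, the ratio of Crot no longer passed at any of the 3 times. It also missed the threshold without fed replicate 3 at 12 and 24 h, without 24 h replicate 1 or 3 at 24 h, and without 72 h replicate 1 at 72 h, with adjusted p of at most 0.0861.

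Among the acyl-CoA dehydrogenases, Acadl, for long chains, was lower at 72 h. Its log2 ratios were -0.08, -0.31 and 0.69 in the fed pools, 0.08, 0.03 and -0.22 at 12 h, -0.22, 0.01 and -0.02 at 24 h, before reaching -0.83, -0.68 and -1.08 at 72 h. The 12 and 24 h pools lay within the fed range, and the 72 h pools lay under it. The difference from fed was -0.96 ± 0.22 at 72 h (adjusted p = 0.0131), a 1.95-fold lower level, and -0.78 ± 0.22 from 24 h to 72 h (0.0378). Without 72 h replicate 1 or 3 the difference from fed missed the threshold, with the highest adjusted p at 0.0591. The step from 24 h to 72 h crosses the sets of arrays. Its call held in 5 of the 12 fits without 1 array, with the highest adjusted p at 0.137.

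Acadm, for medium chains, had log2 ratios of 0.18, -0.08 and 0.42 in the fed pools, -0.13, -0.05 and 0.29 at 12 h, -0.70 and -0.22 in the 2 pools measured at 24 h, and -0.57, -0.40 and -0.48 at 72 h. The 12 h pools overlapped the fed pools, and the 24 and 72 h pools lay below them. The difference from fed was -0.14 ± 0.19 at 12 h (adjusted p = 0.664), -0.63 ± 0.21 at 24 h (0.0749) and -0.66 ± 0.19 at 72 h (0.041). Only the last passed, and it missed the threshold in 6 of the 12 fits without 1 array, those without fed replicate 1 or 3, 12 h replicate 2 or any 1 of the 72 h pools.

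Acadvl, for very long chains, stood above its single fed value at all 3 times, by 3.47 ± 0.42 at 12 h, 2.28 ± 0.39 at 24 h and 2.14 ± 0.42 at 72 h. Calls of these differences assume that the lone fed value varies like the pools of the other groups. Only fed replicate 3, at -1.59, gave a fed value, since the spots of fed replicates 1 and 2 were left out as outliers. Replicates 1 at 12 and 72 h were left out in the same way. The pools in the fit stood at 1.25 and 2.51 at 12 h, 0.54, 0.83 and 0.69 at 24 h, followed by 0.65 and 0.44 at 72 h.

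With all spots kept, Acadvl had log2 ratios of 0.57, 0.48 and -1.60 in the fed pools and of 0.44, 0.66 and 0.45 at 72 h. Median Cy3 intensity of the spot was 2444 and 1500.5 in fed replicates 1 and 2, beside 459 in replicate 3. The differences from fed were then 1.68 at 12 h (adjusted p = 0.045), 0.88 at 24 h (0.265) and 0.70 at 72 h (0.417). With all spots kept and fed replicate 3 left out, a setting chosen after seeing the data, they were 0.97 (0.154), 0.17 (0.828) and -0.01 (0.988). Without fed replicate 3 and with the flags applied, Acadvl had no fed value at all. The difference of Acadvl from fed therefore had no replicate check in the fed group.

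The subunits of the trifunctional protein, which share a promoter region, had their highest mean ratio at 12 h. Hadhb, the thiolase subunit, had log2 ratios of 0.11, -0.12 and -0.06 in the fed pools, 0.32, 0.22 and 0.65 at 12 h, 0.28, 0.02 and -0.28 at 24 h, whereas the 72 h pools had -0.90, -0.54 and -1.01. All 12 h pools lay above and all 72 h pools below the fed pools. The difference from fed was 0.42 ± 0.19 at 12 h, which did not pass (adjusted p = 0.157), 0.03 ± 0.19 at 24 h (0.943) and -0.79 ± 0.19 at 72 h, which did (0.0145). The 72 h call was lost without fed replicate 1 or without 72 h replicate 1 or 3, with adjusted p of at most 0.0755. From 12 to 72 h it fell by 1.21 ± 0.19 (adjusted p = 0.00193). With median centring its difference from fed was -0.35 at 12 h and -0.45 at 24 h, against the sign given above.

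Hadha, the subunit with the hydratase and dehydrogenase sites, had log2 ratios of -0.20 and -0.71 in the 2 fed pools measured, 0.43 and 1.45 in the 2 pools at 12 h, -0.26, 0.01 and -0.10 at 24 h, followed by -0.60, -0.52 and -0.62 at 72 h. The 12 h pools lay apart from all others, and the 72 h pools lay inside the range of the 2 fed pools, whose low end was fed replicate 3. Fed replicate 1, left out as an outlier, had -0.07 with its spot kept. The difference from fed was 1.396 ± 0.29 at 12 h (adjusted p = 0.0139), 0.34 ± 0.27 at 24 h (0.438) and -0.12 ± 0.27 at 72 h (0.822), with a 95% interval of -0.70 to 0.45 at 72 h. Tested by limma directly against the Cy5 reference rather than the fed arrays, Hadha was called lower at 72 h (-0.58, adjusted p = 0.0237). In that setting 5065 of 20274 probes were called. With outlier spots kept and fed replicate 3 left out, its 72 h difference was -0.44 (0.394). Without fed replicate 3 the 12 h difference was no longer called, with an adjusted p of 0.0904. From 12 to 72 h Hadha fell by 1.52 ± 0.27 (adjusted p = 0.00493), and this call held without any 1 of the 12 arrays. Whether Hadha and Hadhb differed at 72 h was not tested.

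Eci1, the isomerase for unsaturated chains, had log2 ratios of -0.24, -0.26 and 0.35 in the fed pools, 0.35, 0.40 and 0.38 at 12 h, -0.05, 0.23 and 0.18 at 24 h, before reaching -0.71, -0.56 and -0.72 at 72 h. Only the 72 h pools lay clear of the fed pools. The differences from fed were 0.43 ± 0.18 at 12 h (adjusted p = 0.124), 0.17 ± 0.18 at 24 h (0.563) and -0.61 ± 0.18 at 72 h (0.0369). The 72 h call was lost without fed replicate 1 or 3 or any 1 of the 72 h pools. It fell by 1.04 ± 0.18 from 12 to 72 h (adjusted p = 0.00303). With median centring its difference from fed was -0.15 at 12 h and -0.10 at 24 h.

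Ehhadh, the bifunctional enzyme of the peroxisome, had a lower log2 ratio at all 3 times. Its fed pools had log2 ratios of 0.23, -0.09 and 0.78, the 12 h pools -0.38, -0.29 and -0.35, the 24 h pools -0.68, -0.39 and -0.40, and the 72 h pools -0.86, -0.64 and -0.61. No fasted pool reached the lowest fed pool. The differences from fed were -0.65 ± 0.20 at 12 h (adjusted p = 0.049), -0.79 ± 0.20 at 24 h (0.0235) and -1.01 ± 0.20 at 72 h (0.00505), the last a 2.01-fold lower level. The 12 h call was lost in 11 of the 12 fits that left out an array, all but that without fed replicate 2. The 24 h call was lost without fed replicate 1 or 3 and without 24 h replicate 1 or 3, and the 72 h call in none of the 12.

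**Figure D2:**
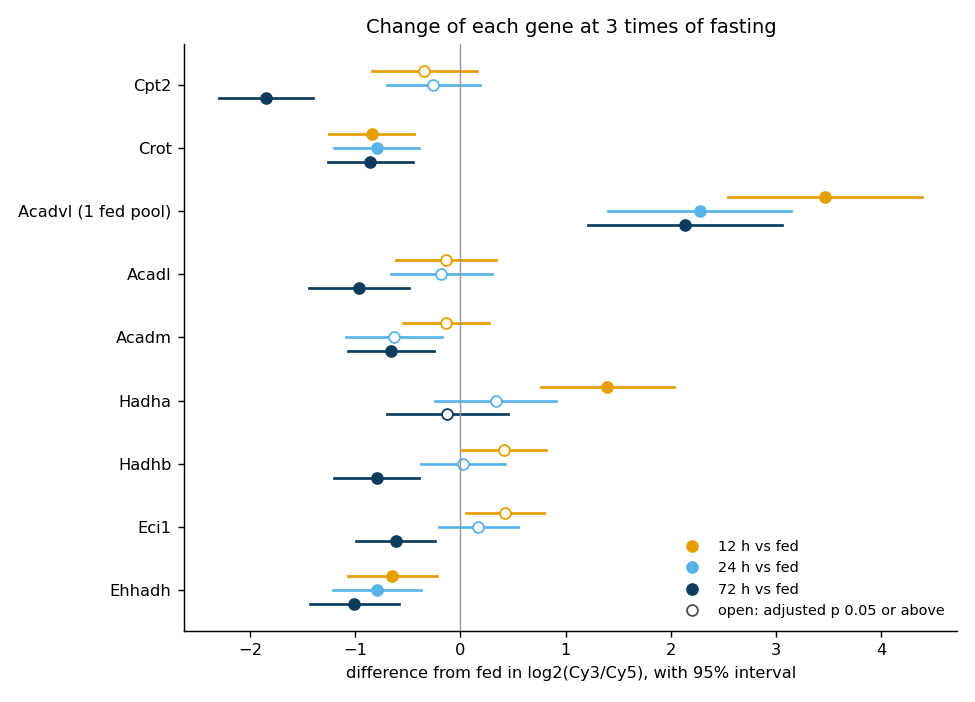
Difference from the fed pools in log2(Cy3/Cy5) (x axis) for each gene (y axis) at 12, 24 and 72 h, with the 95% interval as a line and filled points for an adjusted p under 0.05. Crot and Ehhadh lie left of 0 at all 3 times, Cpt2 reaches -1.85 at 72 h, and the points of Acadvl, at 2.14 to 3.47, rest on 1 fed pool.

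By the labelling protocol the Cy5 reference was one pool of fed mice for all arrays, although the source label of the third fed array names fewer mice. Its signal was tested alone as the background to the ratios. No member was called in Cy5 at 72 h, beside 0% of all probes, and the Cy5 differences of the 7 downregulated genes ran from 0.005 to 0.22. Their Cy3 signals differed from fed by -0.60 for Eci1 to -1.73 for Cpt2, and 4 of the 7 passed in Cy3 alone, beside 8.65% of all probes called in either direction: Cpt2, Acadl, Hadhb and Ehhadh. At 12 h, 3 members were called higher in Cy5, Crot (0.73 ± 0.18), Acadl (0.51 ± 0.14) and Ehhadh (0.63 ± 0.18), beside 21.9% of all probes called in either direction. The Cy3 differences of the same genes at 12 h were -0.12 ± 0.22 for Crot and -0.02 ± 0.25 for Ehhadh, neither called. The lower ratios of Crot and Ehhadh at 12 h thus came with a higher Cy5 signal and no called change in Cy3. At 24 h no member was called in Cy5, beside 20.4% of all probes, and in Cy3 alone Crot (-0.63 ± 0.22, adjusted p = 0.0467) and Acadm (-0.68 ± 0.24, 0.0477) passed as lower, beside 24.6% of all probes called in either direction, whereas Ehhadh did not (-0.70 ± 0.25, 0.0538). In Cy3 alone Eci1 (0.87 ± 0.22) and Hadha (0.88 ± 0.21) were called higher at 12 h, with adjusted p of 0.0151 and 0.0147. So was Acadvl, by 2.305 on its single fed pool, beside 15% of all probes called in either direction. The Cy5 signal at 12 h was higher for Eci1 by 0.45 ± 0.16 (limma, adjusted p = 0.0616) and lower for Hadha by 0.52 ± 0.25 (0.159). The ratio of Eci1 at 12 h was not called. On 12 h replicate 3, median Cy5 intensity was 435 for Acadvl and 838.5 for Hadha, beside 886 and 2268 on replicate 2.

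**Figure D3:**
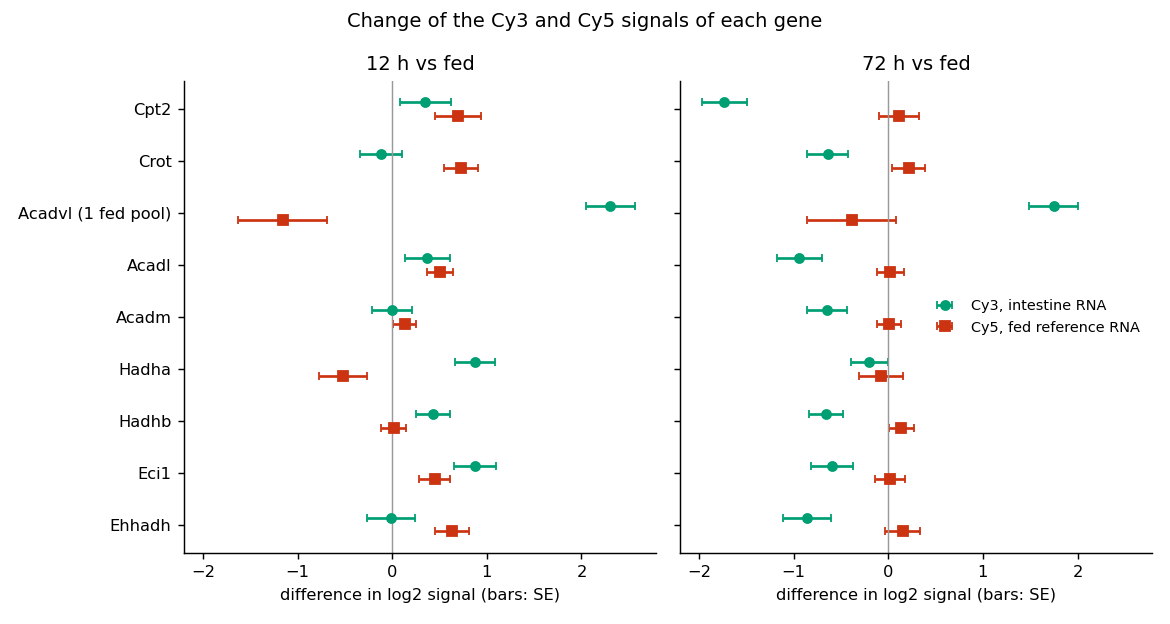
Difference from fed in the log2 Cy3 signal (green circles, intestine RNA) and in the log2 Cy5 signal (red squares, fed reference RNA) of each gene at 12 h (left) and 72 h (right), with bars for the SE. At 72 h the Cy5 points of 8 genes lie between -0.08 and 0.22 and that of Acadvl at -0.39, whereas at 12 h those of Crot, Ehhadh and Cpt2 lie at 0.63 to 0.73.

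The fall was compared between fasted times as well. From 24 to 72 h, 4 genes were called lower, beside 4.73% of all probes: Cpt2 (-1.59 ± 0.21, adjusted p = 0.000957), Hadhb (-0.82 ± 0.19, 0.0144), Eci1 (-0.78 ± 0.18, 0.0128) and Acadl (-0.78 ± 0.22, 0.0378). Crot (-0.06 ± 0.19), Acadm (-0.03 ± 0.21) and Ehhadh (-0.21 ± 0.20) did not pass in that step. From 12 to 72 h, 6 genes were called lower, beside 4.92% of all probes, namely these 4 with Hadha and Acadvl. Between 12 and 24 h no gene was called, beside 2.92% of all probes, and at an unadjusted p under 0.01 with at least a 1.4-fold change 2 genes passed, beside 8.23% of all probes, Acadvl (-1.19 ± 0.31) and Hadha (-1.06 ± 0.27). The steps to 72 h cross the sets of arrays. Only the call of Cpt2 held in the 24 to 72 h step without any 1 array, and the count of 4 ran down to 1 without 24 h replicate 2, 72 h replicate 1 or 72 h replicate 3. Over all probes, the 2150 calls of that step fell to 995, 551 and 950 in these fits.

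The likeness of the genes to each other was measured by Pearson's r of their log ratios over the arrays on which both had a value, 9 to 12 for pairs without Acadvl and 7 or 8 for pairs with it. Cpt2 was most like Acadl (Pearson r = 0.897), Crot most like Ehhadh (0.868), Eci1 most like Acadl (0.854), Acadm most like Ehhadh (0.844), Acadvl most like Hadha (0.841) and Hadhb most like Eci1 (0.831). The median r over the 36 pairs was 0.533, with 29 pairs above 0 and a range from -0.89 (Acadvl with Crot, on 8 arrays that include 1 fed pool) to 0.897. Without Acadvl, 26 of 28 pairs were above 0, with the lowest at -0.44. All values come from the same arrays and share their normalization. Outside the pathway, among 8809 named probes measured on all 12 arrays, those most like the mean standardized log ratio of the 9 genes were H2-Ab1 (r = 0.98), Coro1b (0.967), Ifitm3 (0.96), Ap2m1 (0.96) and Pdia4 (0.953).

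Of 65 further genes listed for fatty-acid oxidation and its regulation, 43 had a probe. At 12 h, 7 of the 43 were called higher and 6 lower, at 24 h 4 higher and 4 lower, and at 72 h 3 higher and 8 lower. Over all probes, 4.9%, 3.79% and 4.8% were called higher at the respective times, and 6.02%, 6.26% and 5.8% were called lower. The median differences of the 43 genes from fed were 0.24, 0.07 and -0.06 at these times. The 13 calls at 12 h fell to 6 without fed replicate 1 or 3. The 8 calls at 24 h fell to between 1 and 5 without any 1 of the fed, 24 h or 72 h pools, lowest without fed replicate 1, and rose to 13 without 12 h replicate 3. The 11 calls at 72 h fell to 7 without fed replicate 1 or any 1 of the 72 h pools. Calls over all probes moved as well in these fits. At 12 h they fell from 2213 to 817 without fed replicate 1 and to 636 without fed replicate 3. At 24 h they went from 2038 to 587 without fed replicate 1 and to 3987 without 12 h replicate 3. At 72 h they fell from 2150 to between 852 and 1464.

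The 8 genes called lower at 72 h came from several steps of the pathway. Etfa, which takes the electrons of all acyl-CoA dehydrogenases, fell by 1.22 ± 0.18 (adjusted p = 0.000912), and it was lower at 12 h (-0.64 ± 0.18) and 24 h (-0.78 ± 0.18) too. Acsl5, which activates fatty acids to acyl-CoA in enterocytes, fell by 0.82 ± 0.18 at 72 h (0.0105). Acat1, the mitochondrial acetoacetyl-CoA thiolase, fell by 0.77 ± 0.17 (0.00906) and Acad8, a dehydrogenase of valine breakdown, by 0.64 ± 0.18 (0.0378). Hacl1 and Amacr, which serve branched chains in peroxisomes, fell by 0.83 ± 0.17 (0.00765) and 0.60 ± 0.18 (0.0486). Mlycd, which degrades the inhibitor malonyl-CoA, fell by 0.94 ± 0.19 (0.00659). At 12 h, 6 of the 43 were called lower: Etfa, Phyh, Acad8 (-0.77 ± 0.18, adjusted p = 0.0196), Acat1 (-0.81 ± 0.17, 0.0108), Hacl1 (-0.88 ± 0.17, 0.00924) and Mlycd (-0.87 ± 0.19, 0.0145). In Cy3 alone the differences of these 6 at 12 h ran from -0.375 to -0.001, with adjusted p of 0.232 to 0.999. Acat1 was lower at 24 h as well (-0.55 ± 0.17, 0.0495).

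Oxct1, which uses ketone bodies, fell by 1.00 ± 0.20 at 24 h (adjusted p = 0.0118) and by 1.41 ± 0.23 at 72 h (0.00193). Phyh, which starts the breakdown of phytanic acid, fell by 0.98 ± 0.19 at 12 h (0.00857) and by 0.72 ± 0.19 at 24 h (0.0296).

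Of 3 acyl-CoA thioesterases, 2 were called higher at 12 h and 1 at 24 h, and of 6 regulators, 2 were called higher and 1, Mlycd, lower at 12 h, and 2 higher at 24 h. The shares of all probes called were 4.9% higher and 6.02% lower at 12 h, and 3.79% higher at 24 h. The log2 ratio of Acot1 was higher by 1.58 ± 0.16 at 12 h (adjusted p = 0.000321) and by 0.85 ± 0.16 at 24 h (0.0067), with Cy5 differences of -0.52 and -0.86 and Cy3 differences of 1.06 and -0.01. That of Acot2 was higher by 0.49 ± 0.14 at 12 h (0.0447). That of Ppara was higher by 1.02 ± 0.25 at 12 h (0.0219), with a Cy5 difference of -1.29 and a Cy3 difference of -0.27 (adjusted p = 0.629 in Cy3 alone). At 24 h it was higher by 0.90 ± 0.25 (0.0362), with a Cy5 difference of -0.05 and a Cy3 difference of 0.85 (0.0702). Ppargc1a, a coactivator of the pathway, was higher by 1.13 ± 0.30 at 12 h (0.033) and by 1.02 ± 0.30 at 72 h (0.0465), Ppard by 0.48 ± 0.14 at 24 h (0.047), and Rxra, the partner of the PPARs, by 2.41 ± 0.50 at 72 h (0.00659). Ech1, an auxiliary isomerase, was called higher at 12 h (2.69 ± 0.73, 0.0433) on a single fed pool, as was Acadvl. No gene of fatty-acid activation or of the carnitine shuttle on the list was called at 12 or 24 h.

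**Figure D4:**
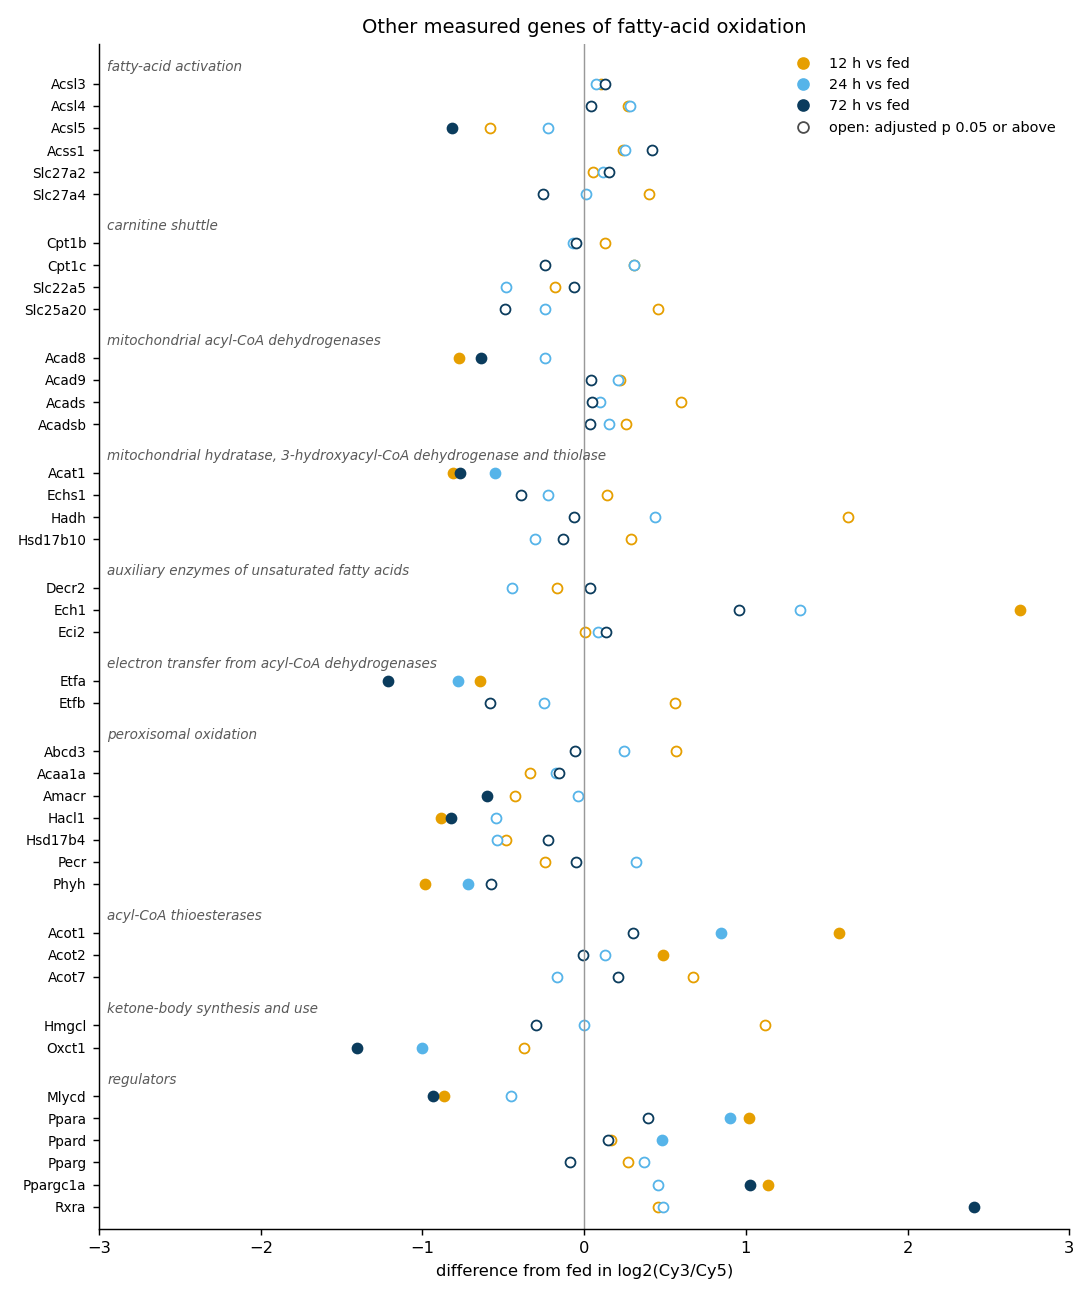
Difference from fed in log2(Cy3/Cy5) (x axis) of 41 of the 43 further pathway genes, grouped by role, at 12, 24 and 72 h, with filled points for an adjusted p under 0.05. Etfa is filled and left of 0 at all 3 times, and Rxra at 72 h lies at 2.41.

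Markers of other cell types were tested in the same way. Over all probes, 4.9%, 3.79% and 4.8% were called higher at 12, 24 and 72 h, and 6.02%, 6.26% and 5.8% lower. Of the 7 of 8 smooth muscle markers with a probe, 4 were called higher at 12 h, 2 at 24 h and 2 at 72 h, and their mean log2 ratio per pool ran from -0.48 to -0.02 in the fed group, from 0.56 to 1.27 at 12 h and from -0.16 to 0.13 at 72 h. Their summed Cy3 signal was 6204 to 7936 in fed pools and 7516 to 8239 at 72 h. The 7 of 14 enterocyte markers with a probe had summed Cy3 signals of 107300 to 160300 in fed pools and 109600 to 131000 at 72 h, and 1 of them, Lct, was called lower at 72 h on 1 pool in each group. At 12 h Anpep and Lgals4 of the enterocyte list were called higher and Lct lower, the last again on a single fed pool. Of the 5 of 7 B and plasma cell markers with a probe, 2, Jchain and Ms4a1, were called lower at 72 h and Jchain at 24 h, with summed Cy3 signals of 3108 to 4286 in fed pools and 916.6 to 1088 at 72 h. Of the 3 of 6 goblet cell markers with a probe, 2 were called higher at 24 h and 1, Agr2, lower at 72 h, while 0 of the 3 of 9 T cell markers with a probe were called against fed by limma at any time, with 1 at an unadjusted p under 0.05 at each time. Of all 20278 probes tested at 12 h, 5918 had an unadjusted p under 0.05, beside 5470 at 24 h and 5138 at 72 h. All 7 smooth muscle, 5 B and plasma cell, 3 T cell and 3 goblet cell probes were well above background on at least 11 arrays. Of the adipose and exocrine pancreas lists only Cidea and Cpa1 had a probe, and neither was called against fed. Cpa1, a pancreatic carboxypeptidase, had Cy3 signals of 4349, 6280 and 29350 in the fed pools, 7750 to 13210 at 12 h, 4493 to 26680 at 24 h and 5707 to 13830 at 72 h. Fed replicate 3, the highest of the fed pools in Cpa1 and the pool behind the fed value of Acadvl, was also the lowest in the mean log2 ratio of the enterocyte markers, at -0.60 beside -0.06 and 0.15. At the other end, 12 h replicate 3 had an enterocyte mean of 1.42, beside 0.02 and 0.27 in the other 12 h pools. It also had the highest ratios of Hadha (1.45) and Acadvl (2.51). The part of cell composition in the changes of the 9 genes was not tested.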

How the data were processed

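RNA of 12 pools of mouse small intestine was measured on 2-colour Agilent 22K oligonucleotide arrays, 3 per time point. The authors deposited the output of Feature Extraction 6.1.1, with a median foreground and background intensity per spot and channel, neither corrected nor normalized, and with spot flags and a log10 ratio of Cy5 over Cy3 as other columns. In place of the Split-Factor analysis of variance in the paper's methods, limma was used here.

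The median intensities were corrected with normexp (offset 50), and all 24 channels were quantile normalized together. Of 21446 spots, 1075 controls, 91 marked as retired and all outlier spots were left out, which left 20280 probes. One model with a mean per time point was fitted to log2(Cy3/Cy5) of all 12 arrays (limma 3.58.1, R 4.3.3) and moderated with eBayes. Benjamini-Hochberg adjustment ran over all probes, and genes with an adjusted p under 0.05 are called. SE and 95% intervals are those of this fit. The fit was tested on simulated data. Other software was data.table version 1.17.8, Python version 3.11.15, pandas version 2.3.3 and, for plots, matplotlib version 3.10.9. In the log10 ratios, an alternative here, the decimal point of 275 cells was set back and 87 cells were left out.

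The 9 genes, the pathway and marker lists and the tests were chosen with earlier results of these data known. A gene's probe was the brightest of its probes. Pathway genes were named if called at 12, 24 or 72 h against fed, except 2 that are in the counts but not reported here, and likeness was ranked by Pearson r over arrays with both values. Pools of the same number come from different mice. Deviations from the group means of same-numbered pools correlated at -0.297 to 0.128 (median -0.037 over 18 pairs, 2 of them over 0.1), so the numbers do not pair the pools. Precision rests on 3 pools per group. Alternatives changed the background correction, normalization, signal, outlier and dim spots, test, threshold, replicate block and arrays in the fit.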

Additional observations from a re-analysis of the deposited data

Results flagged for a closer look

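For 6 of the 9 genes the level at 72 h differed from that at 12 h, or for 4 of them also from that at 24 h, by the test between the fasted groups. Of all probes, 4.92% were called lower from 12 to 72 h and 4.73% from 24 to 72 h. Cpt2, Hadha and Acadvl had 2 pools at 12 h, and Acadvl had 2 at 72 h as well. The log2 ratio of 72 h minus that of 12 h was -1.501 ± 0.23 (SE) for Cpt2 (limma's adjusted p = 0.00225), -1.52 ± 0.27 for Hadha (0.00493), -1.21 ± 0.19 for Hadhb (0.00193), -1.04 ± 0.18 for Eci1 (0.00303), -0.825 ± 0.22 for Acadl (0.03) and -1.33 ± 0.34 for Acadvl (0.0335). The log2 ratio of 72 h minus that of 24 h was -1.59 for Cpt2, -0.82 for Hadhb, -0.78 for Eci1 and -0.78 for Acadl. All of these set arrays of one file layout against the other, so that time and layout cannot be told apart. In Cy3 alone, 72 h minus 12 h was -2.085 for Cpt2, -1.075 for Hadha, -1.09 for Hadhb, -1.47 for Eci1, -1.31 for Acadl and, with an adjusted p of 0.0933, -0.555 for Acadvl. In the Cy5 reference it was -0.58 for Cpt2, -0.43 for Eci1 and -0.48 for Acadl, the last called by limma (adjusted p = 0.049). For Hadha, Hadhb and Acadvl the Cy5 difference was 0.44, 0.12 and 0.775, none of them called. The 72 h to 12 h difference of Acadvl was not called in 7 of the 12 fits that left out 1 array, and that of Acadl was lost without 12 h replicate 2 or 72 h replicate 1 or 3. The 72 h to 24 h difference of Acadl was not called in 7 of the 12 fits, that of Hadhb in 4 and that of Eci1 in 3.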

How the results depend on the processing

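The 25 differences of single genes called in the fit reported above kept direction and call in 266 values under 14 settings, lost the call in 73, and 1 reversed. That was Acadvl at 72 h, at -0.013 with outlier spots kept and fed replicate 3 left out, a setting chosen after seeing the data. Under that setting 0 members were called at 12 h, 0 members at 24 h and 3 members at 72 h (Cpt2, Hadhb and Ehhadh). The whole array lost calls too, going from 2213 to 460 probes after 12 h of fasting and from 2038 to 899 after 24 h. After 72 h, 1130 probes passed in place of 2150. In Cy5 no member was called at 12 h, and of the other pathway genes 5 were called at 12 h and 3 at 24 h. Leaving out 1 array at a time, called differences kept their call 233 times, lost it 64 times and never reversed. The kept calls include those of Acadvl against fed, in all 11 fits with a value at each time. Without fed replicate 3, its only fed pool, Acadvl gave no value to count.

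Members called against fed numbered 0 at 12 h with only the 2 groups compared, where 0 of 20278 probes were called at all. Without moderation of the variance 1 was called at 12 h, 1 at 24 h and 4 for 72 h, beside 1033, 1215 and 1449 of all probes. Members called numbered 5 at 72 h with the Feature Extraction log ratio and 5 with the Cy3 channel alone, beside 3209 and 1753 of all probes. With the replicate block 2 were called at 12 h and 5 at 72 h, and of the other pathway genes 4 at 24 h and 7 at 72 h. Median centring left 2 members called in each of the 72 h against 12 h and 72 h against 24 h comparisons, and the Feature Extraction log ratio 2 in the latter. All probes called there numbered 662 and 1253 with median centring and 2420 with the Feature Extraction log ratio. For 24 h against 12 h, Cy3 alone gave 1 member and the thresholds of the paper's methods 2, beside 1662 and 1669 of all probes. In Cy5, with only the 2 groups compared, 0 members were called at 12 h and 1 at 24 h. Other pathway genes at 12 h numbered 5 with the Feature Extraction log ratio, 0 with only the 2 groups, 21 directly against the reference and 8 without moderation. All probes called in these settings numbered 1594, 0, 4777 and 1033. The other pathway genes numbered 4 at 24 h and 6 at 72 h without moderation, and 7 at 72 h with no background correction. All probes called there numbered 1215, 1449 and 1539.

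Without 1 array, members called ranged from 1 to 4 at 12 h, 0 to 4 at 24 h, 3 to 8 at 72 h, 0 to 2 for 24 h against 12 h and 1 to 4 for 72 h against 24 h, and in Cy5 from 0 to 6 at 12 h and 0 to 1 at 24 h. Other pathway genes called ranged from 6 to 17 at 12 h, 1 to 13 at 24 h and 7 to 15 at 72 h. Calls over all probes ranged from 636 to 4584 at 12 h, 587 to 3987 at 24 h and 852 to 3734 at 72 h. They ranged from 168 to 1491 for 24 h against 12 h and from 551 to 3942 for 72 h against 24 h.

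Differences that were not called changed sign as follows. In Cy3 alone, Acadl at 12 h was 0.37, Acadm for 72 h against 24 h 0.031, Cpt2 0.35 at 12 h, 0.28 at 24 h and -0.072 for 24 h against 12 h, and Crot for 24 h against 12 h -0.51. With median centring, 24 h against 12 h gave 0.29 for Acadl, 0.048 for Eci1 and 0.13 for Ehhadh, 72 h against 24 h 0.034 for Acadvl, and 72 h against 12 h 0.23 for Crot. Against fed it gave -0.15 for Eci1 and -0.35 for Hadhb at 12 h, and -0.10 for Eci1 and -0.45 for Hadhb at 24 h. With loess, Acadm at 12 h was 0.028, Hadha at 72 h 0.12, and for 24 h against 12 h Cpt2 was -0.033 and Crot -0.037. Directly against the reference, Acadm at 12 h was 0.036 and Hadha at 24 h -0.12. With the Feature Extraction log ratio Hadha at 72 h was 0.088, and with no background correction Crot for 72 h against 12 h was 0.038. With outlier spots kept, Acadm for 72 h against 24 h was 0.005 and Crot for 72 h against 12 h 0.011, and the same values, 0.005 and 0.011, came with fed replicate 3 left out too. There Acadl was 0.12 at 12 h and 0.11 at 24 h.

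Without 1 array, the range was -0.34 to 0.16 for Acadl at 12 h, -0.38 to 0.12 for Acadl at 24 h, -0.13 to 0.03 for Acadl for 24 h against 12 h, -0.27 to 0.21 for Acadm for 72 h against 24 h, -0.14 to 0.32 for Cpt2 for 24 h against 12 h, -0.041 to 0.21 for Crot for 24 h against 12 h, -0.10 to 0.15 for Crot for 72 h against 12 h, -0.13 to 0.021 for Crot for 72 h against 24 h, -0.38 to 0.13 for Hadha at 72 h and -0.11 to 0.17 for Hadhb at 24 h. The causes of these changes were not tested. No slide or scan date was in the columns used, so that a batch block was not run, and a mean over probes was the same as the main value, since each member had 1 probe. With 3 pools per group and 1 fed value for Acadvl, the number of arrays limits the precision.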
